A study of Mus musculus with 16 samples.

Results

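The Itgax Mmp12 Lpl high macrophages described here are 1383 of 13823 myeloid cells found in cultures of mouse bone marrow stromal cells, out of 17793 cell barcodes in 15 samples. They were chosen from their own expression values. Cells with at least 500 detected genes and under 20% mitochondrial UMIs (unique molecular identifiers, each counting 1 captured mRNA molecule) were called myeloid when Lyz2, Tyrobp, Fcer1g, C1qa, C1qb and C1qc together reached 80 UMIs per 10,000 and Col1a1, Col1a2, Sparc, Tagln and Tpm2 together stayed under 25 per 10,000. Within each sample the top 10% of these cells by the sum of Itgax, Mmp12, Dcstamp, Lpl and Mfge8 per 10,000 UMIs, referred to as the score, were the members, and the other 90% of the same sample were the comparison. By this rule every sample gives the same share of members, so their number carries no information, and the levels of the 5 score genes and 11 gate genes are given as a description only.

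The cultures came from 12-week-old male C57BL/6J mice and were kept for 21 days with 10 mM β-glycerophosphate, which lets osteoblasts mineralise. The 4 genotypes were WT (Dmp1+/+ Fgf23 fl/fl Dmp1-cre-), Fgf23cKO (Dmp1+/+ Fgf23 fl/fl Dmp1-cre+), Dmp1KO (Dmp1-/- Fgf23 fl/fl Dmp1-cre-) and Dmp1KO/Fgf23cKO (Dmp1-/- Fgf23 fl/fl Dmp1-cre+). All 4 therefore carried the floxed Fgf23 allele, the Dmp1 deletion was global, and the Cre was driven by a Dmp1 promoter, which is active in mature osteoblasts and osteocytes and not known as a macrophage promoter. Viable cells were sorted, tagged by culture and loaded in 1 droplet reaction per genotype, and in each comparison between genotypes the genotype and its reaction cannot be told apart. Marrow came from 3 mice per genotype and gave 3 individual cultures, but the labels tie no culture to an animal, and p-values measure the spread between cultures.

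Tests used the 11 cultures that carried their own tag, 3 each of WT, Fgf23cKO and Dmp1KO/Fgf23cKO and 2 of Dmp1KO (cultures 2 and 3). These cultures held 1210 members and 10889 other myeloid cells. Members numbered 90, 178 and 149 in WT, 36, 33 and 45 in Fgf23cKO, 258 and 242 in Dmp1KO, and 76, 63 and 40 in Dmp1KO/Fgf23cKO. Depth differed between the reactions. The median cell barcode held 7137 to 7275.5 UMIs in WT, 29752.5 to 34988 in Fgf23cKO, 20016.5 and 22186 in Dmp1KO, and 32378 to 33881 in Dmp1KO/Fgf23cKO, and the total per culture ran from 9518928 UMIs (WT 1) to 72482185 (Dmp1KO 2). The samples numbered 4 pooled cells with no clear tag and entered the tests only as an added setting in the closing section. Cell barcodes were not shared within a genotype, and 35 were shared over the 84 pairs of samples from different genotypes, at most 6 in a pair, 1 of them between members.

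Macrophages take up lipoproteins, dying cells and matrix fragments and break them down in lysosomes. Cells that do so heavily, in fat, arteries, nerve or healing bone, turn on a shared set of genes for lipid handling, lysosomal degradation and matrix remodelling. Itgax encodes the integrin CD11c, Mmp12 the macrophage metalloelastase, Lpl the lipoprotein lipase that frees fatty acids, Mfge8 a secreted bridge between phagocytes and dying cells, and Dcstamp a membrane protein needed for the fusion of osteoclast precursors. In bone marrow, macrophages and osteoclasts arise from the same myeloid precursors.

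The score genes lie on 4 chromosomes (GRCm38): Itgax at chr7:128129547-128150657, Mmp12 at chr9:7344381-7369499, Dcstamp at chr15:39745930-39760938, Lpl at chr8:68880491-68907448 and, on the minus strand, Mfge8 at chr7:79133768-79149060. RefSeq promoter windows (GRCm38.p6, from 250 bases before to 50 bases after a start site) were searched on both strands for TGAGTCA, the AP-1 element, and GAGGAAGT, a PU.1 type element, 2 letter strings often found near macrophage genes. Such windows were found for Itgax, Mmp12 and Mfge8, and for 10 of the 12 genes named as most strongly higher and 10 of the 12 named as most strongly lower in the members below. TGAGTCA was in the windows of Itgax and Mmp12, in 1 of the 10 higher genes (Procr) and in 0 of the 10 lower genes, against 5.95% of 27025 genes. GAGGAAGT was in Mmp12, in 0 of the 10 higher genes and in 1 of the 10 lower genes (F13a1), against 3.69% of genes. The matches are shown with the searched letters, or their reverse complement, in capitals, because Mmp12 and Itgax belong to the score, Procr is among the genes most strongly higher in members and F13a1 among those most strongly lower.
Itgax (chr7:128129486-128129508, plus strand): acctcctcTGAGTCAcgctgaca
Mmp12, second start site (chr9:7347322-7347344, plus strand): atcaacagTGAGTCAgatagagg
Mmp12, first start site (chr9:7344301-7344324, plus strand): cttcacccACTTCCTCttccaaga
Procr (chr2:155751055-155751077, plus strand): caccccccTGACTCAgcggcgac
F13a1 (chr13:37049184-37049207, minus strand): gtccttttGAGGAAGTacccagag
The AP-1 matches begin 56 bases before the Itgax start site, 44 before the second Mmp12 start site and 154 before that of Procr. A match of letters is a description and not a binding site, and no factor binding was measured.

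The label of these cells was checked against markers. Of 11 macrophage markers, Lyz2, C1qa, C1qb and C1qc are gate genes, which the rule required, so the sum over the list, at a median of 287 UMIs per 10,000 in members and 388 in the other myeloid cells, does not check the label. Among the markers outside the gate, means over the 11 cultures were 10.5 in members and 7.49 in the others for Cd68, 5.81 and 8.95 for Csf1r, the M-CSF receptor, 2.53 and 5.96 for Adgre1 (F4/80), and 2.68 and 13.2 for Mrc1, the mannose receptor CD206. Dendritic cell markers were at or near 0 although CD11c is often used to define that lineage. Flt3, Ccr7, Xcr1 and Cd209a had 0 UMIs in all tagged members together, Dpp4 had 1, Clec9a 4 and Zbtb46 9. Osteoclast markers were mixed. The 7 of them summed to a median of 7.64 per 10,000 in members and 2.05 in the others, with Atp6v0d2 as the most abundant, at 6.68 and 1.68. Ctsk was at 2.64 and 0.765 and Acp5, the acid phosphatase TRAP, at 0.342 and 0.180, whereas Calcr, the calcitonin receptor, had 0 UMIs, Oscar 4 and Ocstamp 9, and Mmp9 was at 0.0303 and 0.0295. Alveolar macrophage markers were absent in the main: Car4, Ear1, Krt79 and Plet1 had 0 UMIs, and Siglecf was at 0.0380 in members and 0.00324 in the others. The lymphocyte markers Cd79a, Cd3e and Nkg7, the monocyte marker Ly6c2 and the adipocyte marker Lep had 0 UMIs in members. Of the stromal markers, Col1a1 and Col1a2 are gate genes that the rule kept low. Outside the gate Postn was at 0.143 in members and 0.0647 in the others, Col3a1 at 0.0742 and 0.0578, and Dcn and Lum were at most 0.0126. The targeted genes were at low levels. Dmp1 had 3, 6 and 3 UMIs in the members of the WT cultures, 4, 2 and 1 in Fgf23cKO and 0 in all 5 Dmp1-/- cultures, and its 116 UMIs in the other myeloid cells also came from the Dmp1+/+ cultures alone, as the labels have it. Fgf23 had 1 UMI in members and 19 in the other cells, too few to check its label.

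The score that set the border of membership differed between genotypes. The lowest member was at 20.6, 11.8 and 14.5 in WT, 18.8, 13.1 and 32.0 in Fgf23cKO, 112.93 and 97.15 in Dmp1KO, and 9.21, 8.33 and 8.87 in Dmp1KO/Fgf23cKO, in UMIs per 10,000. Just outside it, the highest other cell was at 19.6, 11.6 and 14.3 in WT, 18.8, 12.9 and 31.0 in Fgf23cKO, 112.66 and 97.15 in Dmp1KO, and 9.18, 7.99 and 8.62 in Dmp1KO/Fgf23cKO. The border therefore cut a continuous range and no gap separated the members from the rest. The median member was at 42.1, 28.9 and 39.7 in WT, 35.5, 25.2 and 54.0 in Fgf23cKO, 141 and 129 in Dmp1KO, and 22.5, 16.8 and 21.5 in Dmp1KO/Fgf23cKO. The other cells differed between genotypes too. Their median was 0 in the 3 WT cultures, 0.895 to 1.79 in Fgf23cKO, 20.4 and 13.6 in Dmp1KO, and 0.508 to 0.593 in Dmp1KO/Fgf23cKO. No UMI of any score gene was found in 59.1% to 64.3% of the other cells in WT, 10.3% to 13.4% in Fgf23cKO, 0.860% and 1.15% in Dmp1KO and 18.1% to 22.04% in Dmp1KO/Fgf23cKO. WT was the shallowest reaction, while Fgf23cKO and Dmp1KO/Fgf23cKO were deeper than Dmp1KO and had more such cells. The part of depth in these shares was not tested.

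**Figure D1:**
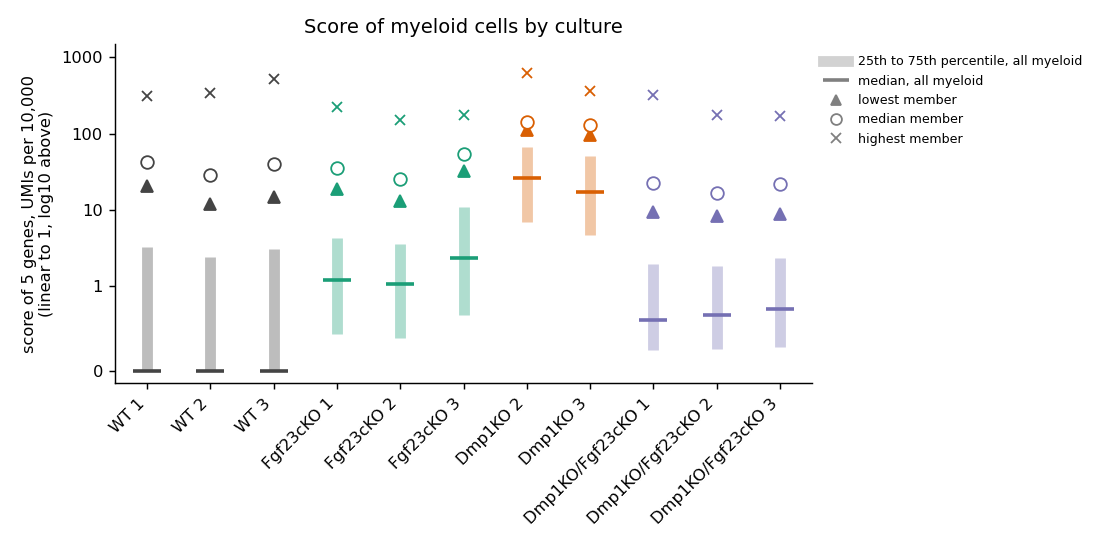
Score (sum of Itgax, Mmp12, Dcstamp, Lpl and Mfge8, UMIs per 10,000, linear below 1 and log10 above) in the myeloid cells of each of the 11 tagged cultures. Bars span the 25th to 75th percentile of all myeloid cells, lines mark their median, and triangles, circles and crosses mark the lowest, median and highest member. The lowest members of Dmp1KO 2 (112.93) and 3 (97.15) lie above the median member of each culture of the other 3 genotypes.

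Mmp12 made up most of the score. It gave 77.1% to 82.0% of the members' summed score in the WT cultures, 61.3% to 78.8% in Fgf23cKO, 52.6% and 51.8% in Dmp1KO, and 59.4% to 63.8% in Dmp1KO/Fgf23cKO. Lpl gave 14.7% to 32.6% over the 11 cultures. Mfge8 stood apart by genotype, at 28.03% and 28.5% in Dmp1KO and between 0.584% (WT 1) and 7.31% (Fgf23cKO 2) in the other cultures. Itgax gave 1.37% to 4.14% and Dcstamp at most 0.637%. All 5 genes had a UMI in the same cell in 53.5% and 48.8% of the Dmp1KO members and in 0 to 7.5% of the members elsewhere. In WT, 66.7% to 69.8% of the members had UMIs of only 1 or 2 of the genes, with the fewest UMIs per cell.

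**Figure D2:**
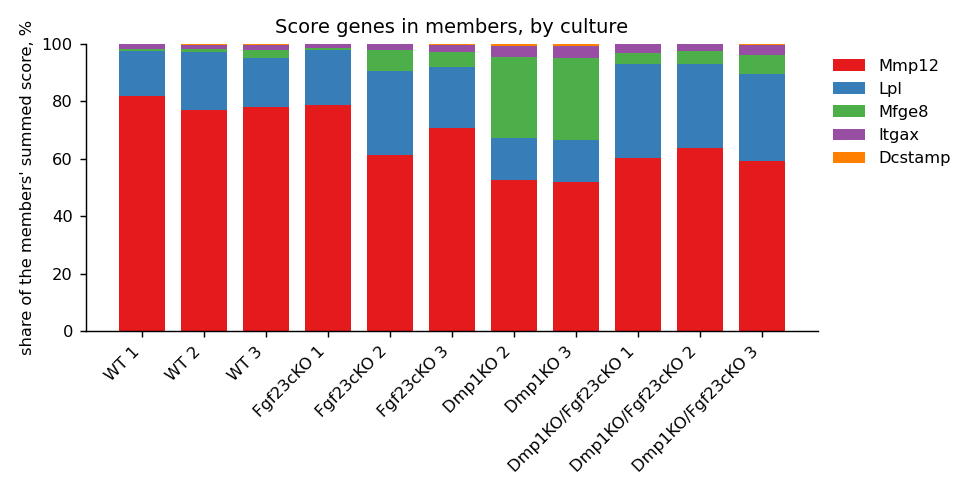
Percent of the members' summed score given by each of the 5 score genes in the 11 tagged cultures, stacked to 100%. Mmp12 is the widest band in every culture, and Mfge8 gives 28.03% and 28.5% in the 2 Dmp1KO cultures.

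Free RNA in droplets can give UMIs in cells that do not express a gene, so the score genes were also read in the stromal cells of the same reactions, cells under 80 UMIs per 10,000 of the myeloid gate genes and at 25 or more of the collagen and contractile genes. Mmp12 had a UMI in 80.6% of WT members, whose cultures had medians of 8038 to 9067 UMIs per cell, 9.19% of the other myeloid cells and 5.88% of 221 stromal cells with a median of 15154 UMIs. In Dmp1KO the same shares were 100%, 89.2% and 68.1% of 135 stromal cells with a median of 17537 UMIs. Shares of cells with a UMI are therefore not read as expression. Per 10,000 UMIs, Mmp12 was at 44.1, 0.391 and 0.0977 in WT members, other myeloid cells and stromal cells, at 41.8, 1.12 and 0.272 in Fgf23cKO, at 73.0, 12.9 and 0.754 in Dmp1KO, and at 30.9, 0.253 and 0.146 in Dmp1KO/Fgf23cKO. The rule itself sets the members high in Mmp12, so their distance from the stromal cells is a description. Itgax was at 1.01 in WT members and 0.00244 in WT stromal cells, and at 5.87 and 0.122 in Dmp1KO. Mfge8 was at 1.49 per 10,000 in WT stromal cells, 1.30 in WT members and 0.0808 in the other WT myeloid cells, whereas Dmp1KO members were at 44.3 and the stromal cells of the same reaction at 2.39.

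To see how far the 5 genes lay in the same cells, the top 10% of cells were chosen again on the other 4 genes and the gene left out was read in them. The 5 genes were picked together with these data known, so the values are a description with no test. Itgax was at a median of 143 CPM (the share of a gene in all UMIs of the summed cells, in the usual CPM unit and scaled by TMM factors; range 67.2 to 766) in the chosen cells and 5.46 CPM (4.05 to 201) in the rest, a log2 fold change of 4.01 ± 0.40 (SE, n = 11). The log2 fold change was 3.38 ± 0.44 for Mmp12, 3.49 ± 0.54 for Mfge8, 3.34 ± 0.41 for Dcstamp and 2.02 ± 0.28 for Lpl, and each was above 0 in 11 of 11 cultures. The levels of Lpl in chosen and remaining cells did not overlap within any genotype. Across genotypes they did, with 1476 and 1238 CPM in the remaining Dmp1KO cells and 642 to 749 CPM in the chosen WT cells. The Itgax step was 4.16 in WT, 4.75 in Fgf23cKO, 2.10 in Dmp1KO and 4.98 in Dmp1KO/Fgf23cKO on the log2 scale, and the Lpl step 2.10, 1.62, 0.83 and 3.19 in the same order. Both were lowest in Dmp1KO, where the border of membership was highest.

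The members also held more UMIs per cell. Their median UMI count was above that of the other myeloid cells in 10 of 11 cultures, by 0.228 ± 0.194 on the log2 scale (SD, n = 11; exact two-sided sign-flip permutation p = 0.00293). The gap was widest in Dmp1KO, with 31158.5 and 30157.5 UMIs in members against 22200.5 and 20192 in the others. Detected genes were higher in 10 of 11 cultures by 0.0651 ± 0.0725 (exact permutation p = 0.00977). The mitochondrial share was 3.27% and 3.31% on average, a difference of -0.0436 ± 0.153 percentage points (exact permutation p = 0.361). The part of depth or of 2 cells in 1 droplet in the results that follow was not tested directly. Values with deep cells left out and with cells thinned to 2000 UMIs (shallower cells left out) are given in the closing section.

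Which other genes went with the score was asked by summing the UMIs of members and of other cells in each culture and comparing them with the culture as a block. Leaving out the score and gate genes, 1100 of 13399 genes were higher in members (8.21%) and 1500 were lower (11.2%), at an edgeR adjusted p under 0.1 and at least a 1.5-fold change. The median log2 fold change over all genes was 0.00. A call says that a gene's level goes with the score within cultures.

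The 12 genes named for the largest rise had diverse functions. Cdkn1c, an inhibitor of cyclin-dependent kinases, had 2.64, 27.9 and 197 CPM (lowest, median and highest of 11 cultures) in members and 0.528, 1.45 and 6.65 CPM in the others (log2 fold change 4.44 ± 0.61, SE; edgeR adjusted p = 1.30e-04). Cd200, a surface ligand that restrains myeloid cells, had 13.2, 34.1 and 225 CPM in members and 0.358, 1.5 and 40.02 CPM in the others (3.58 ± 0.36). The overlap came from the members of Dmp1KO/Fgf23cKO 3 for Cdkn1c, at 2.64 CPM, and from the other cells of Dmp1KO for Cd200, at 40.0 and 27.4 CPM. Npy, a secreted neuropeptide, went from 6.77, 17.1 and 356 CPM in the others to 168, 325 and 800 CPM in members (3.48 ± 0.45). Procr, the endothelial protein C receptor, had 36.9, 108 and 199 CPM in members and 3.51, 8.69 and 23.3 CPM in the others, with no overlap between the sets (3.36 ± 0.21; edgeR adjusted p = 1.54e-07). Il7r, the interleukin 7 receptor chain, had 125, 209 and 661 CPM in members and 10.4, 19.8 and 271 CPM in the others (2.96 ± 0.31). Plpp3, a phosphatase of bioactive lipids, and Fabp7, a fatty acid carrier, also had sets that did not overlap. Plpp3 had 59.8, 91.2 and 172 CPM against 6.02, 9.99 and 52.2 CPM (2.85 ± 0.23), and Fabp7 67.3, 143 and 296 CPM against 7.69, 23.0 and 48.8 CPM (2.58 ± 0.31). The ubiquitin hydrolase Uchl1 did not overlap either, with 34.0, 45.9 and 96.5 CPM in members and 1.84, 7.76 and 24.5 CPM in the others (2.74 ± 0.34). Mamdc2, the sulfotransferase Chst11, the transcription factor Dach1 and the hyaluronan receptor Layn completed the list, with log2 fold changes of 2.97 ± 0.48, 2.89 ± 0.32, 2.53 ± 0.38 and 2.44 ± 0.16. Their levels in members, as scaled in this comparison, were far higher in Dmp1KO than in the other genotypes. Mamdc2 had 274 and 286 CPM in Dmp1KO members and 2.58 to 23.6 CPM in members elsewhere. Chst11 had 236 and 207 against 15.2 to 94.9 CPM, Dach1 323 and 260 against 7.74 to 47.0 CPM, and Layn 138 and 121 against 15.3 to 54.1 CPM.

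The 12 genes named for the largest fall included several known from resident macrophages. F13a1, coagulation factor XIII subunit A, had 6.55, 64.9 and 152 CPM in members and 101, 455 and 577 CPM in the others (log2 fold change -2.83 ± 0.31; edgeR adjusted p = 2.34e-05). Ccl7, a chemokine that draws monocytes, had 21.3, 63.0 and 114 CPM in members and 135, 407 and 548 CPM in the others, with no overlap (-2.57 ± 0.13; edgeR adjusted p = 2.05e-09). Mrc1 had 43.6, 288 and 414 CPM against 315, 1382 and 1517 CPM (-2.30 ± 0.12; edgeR adjusted p = 3.89e-09). The Mrc1 ranges overlapped only through the other cells of Dmp1KO 2, at 315 CPM. Gpr34, a lysophospholipid receptor, and P2ry12, a nucleotide receptor, fell by 2.63 ± 0.23 and 2.73 ± 0.16 on the log2 scale. Gpr34 had 1.18, 10.3 and 24.4 CPM in members and 32.3, 72.1 and 97.5 CPM in the others. The Fc receptor-like gene Fcrls had 37.2, 225 and 291 CPM against 233, 814 and 1097 CPM (-2.24 ± 0.12). Ms4a4a, Ms4a6b, the ribonuclease Rnase4, the endosomal exchanger Slc9a9, the carbonyl reductase Cbr2 and Atrnl1 fell by 2.57, 2.22, 2.40, 2.40, 2.37 and 2.26. The same direction in every culture was a condition for naming these genes.

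**Figure D3:**
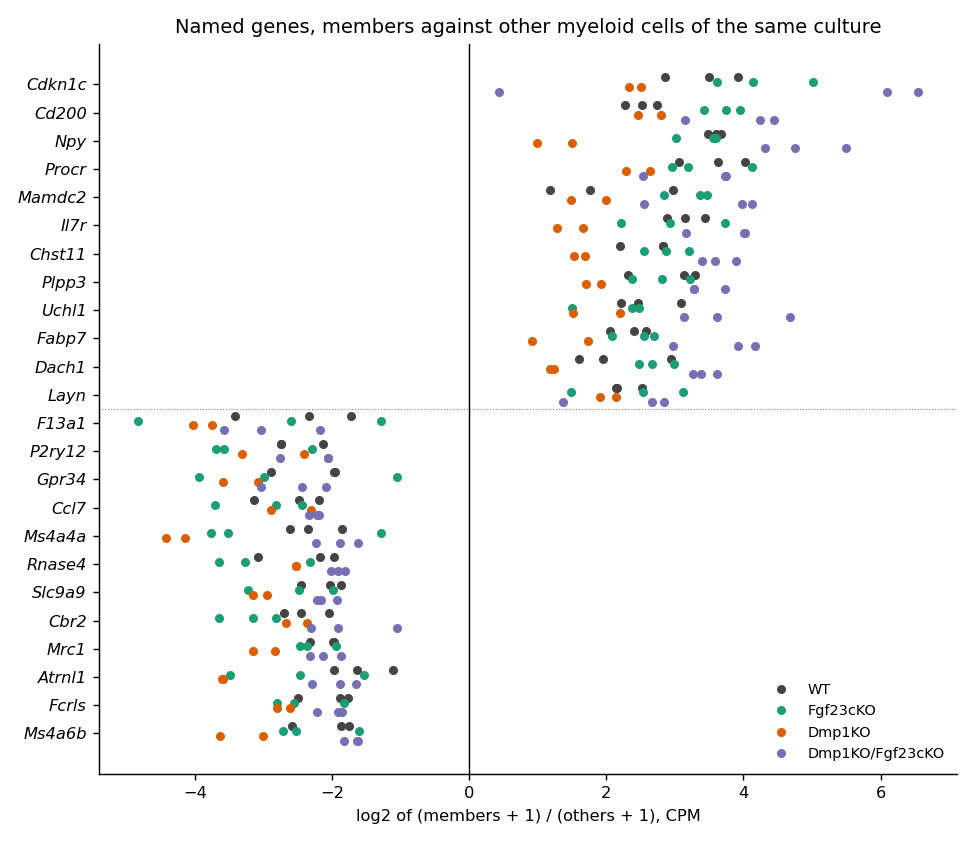
Log2 ratio of the level in members to that in the other myeloid cells of the same culture (CPM, 1 added to each) for the named genes. Each point is 1 of the 11 tagged cultures, coloured by genotype. In CPM, which the ratio does not show, Procr, Plpp3, Uchl1 and Fabp7 were higher in members without overlap. Ccl7, Gpr34, Rnase4 and Ms4a6b were lower without overlap.

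Lipid-associated macrophage genes were higher in members. Of 23 tested, 13 were called higher and 1 lower, with a median log2 fold change of 0.91 beside 0.00 for all genes. Lgals3, galectin 3, had 4992, 10651 and 23535 CPM in members and 1323, 1995 and 11011 CPM in the others (1.997 ± 0.14, SE). Fabp4, a fatty acid carrier, had 156, 212 and 559 CPM against 18.7, 36.5 and 348 CPM (2.27 ± 0.28). Gpnmb, a glycoprotein of lysosomes under load, had 4362, 5517 and 7572 CPM against 1639, 1997 and 3368 CPM, with no overlap (1.38 ± 0.06). For Spp1, osteopontin, 2784, 3833 and 19239 CPM stood against 961, 1224 and 13463 CPM (1.43 ± 0.14), with ranges that overlapped. Apoe, the lipoprotein that carries cholesterol out of macrophages, was the gene called lower, with 6104, 8133 and 10496 CPM against 9660, 16884 and 21493 CPM (-0.93 ± 0.05). Trem2, the lipid receptor of these cells, had a log2 fold change of 0.53 ± 0.05 and missed the 1.5-fold limit.

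Among 39 genes of lipid uptake, storage and oxidation, 11 were called higher and 1 lower (median 0.18). Plin2, the coat of lipid droplets, had 259, 575 and 780 CPM in members and 111, 176 and 410 CPM in the others (1.34 ± 0.11). Hilpda, an inhibitor of lipid breakdown, had 14.5, 33.4 and 48.8 CPM against 5.74, 8.52 and 28.1 CPM (1.51 ± 0.16). The monoacylglycerol lipase Mgll rose by 3.05 ± 0.39 and was higher in 9 of 11 cultures, from a median of 0.744 CPM, and the lipoprotein receptor Vldlr fell by 1.48 ± 0.46 at under 3 CPM. Pparg, the fatty acid sensing nuclear receptor, rose by 1.32 ± 0.19. Cholesterol synthesis moved little: of 23 genes 0 were called higher and 1 lower, Stard4, at -0.69 ± 0.12, and with any fold 6 were higher and 6 lower in edgeR. Liver X receptor targets and efflux genes divided, with 2 higher and 5 lower of 14 (median -0.29). Abcg1, the cholesterol exporter, had 72.2, 134 and 181 CPM against 29.0, 54.1 and 79.1 CPM (1.22 ± 0.07), and Nr1h3, the receptor itself, rose by 1.04 ± 0.14, while Apoc1 fell by 1.51 ± 0.40 and Apoc2 by 0.88 ± 0.17.

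Osteoclast and fusion genes were called higher in 11 and lower in 3 of 25 (median 0.41). Atp6v0d2, a V-ATPase subunit of osteoclasts and of lipid-laden macrophages, had 352, 609 and 1473 CPM in members and 57.1, 96.1 and 595 CPM in the others (2.40 ± 0.23). Ctsk, the collagen-cleaving cathepsin K, had 67.1, 182 and 946 CPM against 9.30, 67.7 and 223 CPM and was higher in 10 of 11 cultures (1.95 ± 0.40). Itgb3, the integrin β3 chain, rose by 2.59 ± 0.33, but at 0, 2.41 and 8.33 CPM in members. Tspan7 and Siglec15 rose by 2.0 ± 0.53 and 1.58 ± 0.47 with medians under 1 CPM and were higher in only 6 and 7 of 11 cultures. Acp5 was also called higher, with 14.98, 33.1 and 63.3 CPM against 7.96, 16.1 and 51.3 CPM (1.13 ± 0.33, higher in 9 of 11 cultures). Lysosomal and V-ATPase genes were called higher in 13 and lower in 1 of 51 (median 0.29). Tcirg1, a V-ATPase subunit, had 259, 334 and 416 CPM against 135, 163 and 206 CPM with no overlap (1.02 ± 0.06), Ctsl rose by 1.71 ± 0.17 and Cd63 by 0.91 ± 0.05. Ctsc, the protease that activates granule enzymes, was the exception, at 90.4, 286 and 370 CPM against 443, 944 and 1101 CPM with no overlap (-1.87 ± 0.11).

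Extracellular proteases and inhibitors had 8 higher and 4 lower of 27 (median 0.12). Beside Ctsk these included the cathepsin inhibitor Cstb (1.26 ± 0.06) and Mmp19 (1.22 ± 0.16), with Mmp27 lower (-1.67 ± 0.16). Mmp10 was called higher by 2.70 ± 0.88, but it was above the others in only 4 of 11 cultures. In the list of complement, integrins and adhesion 4 were higher and 7 lower of 24 (median -0.16). The integrin chain Itgb2, the partner of CD11c, had 255, 380 and 690 CPM against 120, 145 and 224 CPM, with no overlap (1.29 ± 0.07). Itga6 fell by 1.39 ± 0.09, with no overlap, and Itga4 by 1.13 ± 0.06. Uptake of apoptotic cells had 4 higher and 8 lower of 26 (median -0.46): the annexin Anxa1 had 338, 663 and 2307 CPM against 88.1, 121 and 678 CPM (2.09 ± 0.12), whereas the scavenger receptor Stab1 fell by 1.84 ± 0.08, the bridging molecule Gas6 by 1.29 ± 0.05 and its receptor Mertk by 1.13 ± 0.08.

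Antioxidant genes driven by NRF2 were called higher in 9 and lower in 1 of 24 (median 0.45). Prdx1, a peroxide-reducing enzyme, had 5086, 7717 and 14644 CPM in members and 1900, 2329 and 4528 CPM in the others, with no overlap (1.68 ± 0.06, SE; edgeR adjusted p = 2.33e-14). Srxn1, which restores it, had 121, 218 and 330 CPM against 59.4, 66.7 and 84.0 CPM, again with no overlap (1.60 ± 0.11). Esd rose by 1.52 ± 0.05, the cystine importer Slc7a11 by 1.31 ± 0.24 and the iron store Fth1 by 0.91 ± 0.06. Of 26 glycolysis and hypoxia genes 8 were higher and 0 lower (median 0.41), among them the glucose transporter Slc2a1 with 32.9, 42.5 and 68.9 CPM against 15.1, 18.7 and 30.1 CPM and no overlap (1.19 ± 0.07), Pfkp (1.22 ± 0.09) and Pgam1 (1.09 ± 0.07). The 49 genes of oxidative phosphorylation had 0 calls in edgeR with the 1.5-fold limit, but 43 were higher and 0 lower at an adjusted p under 0.1 with any fold, beside 27% higher and 26.1% lower of all genes (median 0.22).

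Resident macrophage genes were lower, with 15 lower and 1 higher (Cd14) of 22 and a median of -1.16. Maf, a transcription factor of resident macrophages, had 54.9, 274 and 659 CPM in members and 263, 1002 and 2240 CPM in the others (-2.01 ± 0.08). Cd163, the haemoglobin scavenger receptor, fell by 2.01 ± 0.36 at medians of 1.02 and 4.53 CPM, and Cbr2, Mrc1 and Stab1 are given above. In the alveolar macrophage list 6 were higher and 2 lower of 8 (median 1.44). Siglecf had the largest change (3.72 ± 0.37) at 0.341, 3.16 and 16.2 CPM against 0, 0.225 and 1.29 CPM, and the others called higher included Atp6v0d2, the receptor antagonist Il1rn (1.55 ± 0.27), Pparg and F7 (1.94 ± 0.40, higher in 6 of 11 cultures). The 15 monocyte genes had 4 higher and 5 lower (median 0.15, but -0.41 in Fgf23cKO and -1.17 in Dmp1KO), Napsa at 1.57 ± 0.19 and Ms4a6c at -1.89 ± 0.20. Dendritic cell genes had 2 higher and 2 lower of 9 (median -0.38, but 0.23 in WT and 0.13 in Fgf23cKO), where Clec10a fell by 2.43 ± 0.16 and Batf3 rose by 1.44 ± 0.27. MHC class II genes had 3 lower and 0 higher of 8 (median -0.67, but 0.25 in WT and 0.53 in Dmp1KO/Fgf23cKO), and the median turned to 0.09 without the Dmp1KO cultures and to 0.08 without cycling and osteoclast cells. Here and below that name stands for all myeloid cells with any UMI of Mki67, Top2a, Ctsk, Calcr or Ocstamp. Such a UMI does not by itself identify a cycling cell or an osteoclast. Cd74, the invariant chain, did not pass, at 3.40, 54.1 and 102 CPM in members and 5.73, 27.3 and 150 CPM in the others. Responses to GM-CSF, M-CSF and IL-4 were split, 9 higher and 8 lower of 34 (median -0.04), where Bhlhe40 (1.49 ± 0.09) and the shared receptor chain Csf2rb (1.31 ± 0.07) rose and Maf, Mrc1, Mgl2 (-2.12 ± 0.50) and Nr4a1 (-1.60 ± 0.20) fell.

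Chemokines fell in 10 and rose in 2 of 19 (median -1.21). Ccl12 had 0.893, 3.81 and 11.6 CPM in members and 12.9, 20.7 and 36.1 CPM in the others with no overlap (-2.41 ± 0.23), Cxcl10 fell by 2.79 ± 0.31 at medians of 0.602 and 6.81 CPM, and Cxcl9 had 0 UMIs in the members of all 11 cultures against a median of 0.0717 CPM. The 2 that rose were Cxcl14 (1.11 ± 0.11) and Ccl9 (0.84 ± 0.26, higher in 9 of 11 cultures). NF-kB and inflammatory genes had 10 lower and 3 higher of 25 (median -0.50). Their median was 0.05 in WT, -0.19 in Fgf23cKO, -1.06 in Dmp1KO and -0.60 in Dmp1KO/Fgf23cKO, and without the Dmp1KO cultures 10 were lower and 6 higher (-0.27). The lower genes included the costimulator Cd86 at 15.2, 80.7 and 143 CPM against 129, 182 and 405 CPM (-1.82 ± 0.24), Nfkbiz at -1.56 ± 0.22 and Il1b at -1.57 ± 0.48. Interferon-stimulated genes had 14 lower and 0 higher of 31 (median -0.54), among them Rtp4, which did not overlap (-1.48 ± 0.13), and Ifit3 (-1.64 ± 0.18). Immediate early and dissociation stress genes had 4 higher and 8 lower of 25 (median 0.01), with Egr1 at -1.85 ± 0.24 and Ier3 at -2.17 ± 0.18.

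Cell cycle genes were called lower in 23 and higher in 0 of 40 (median -0.78), for example Nusap1 at 1.36, 9.29 and 44.6 CPM against 15.4, 35.9 and 73.6 CPM (-1.63 ± 0.37) and Birc5 (-1.41 ± 0.40). The median was -0.996 in WT, -0.94 in Fgf23cKO, -1.23 in Dmp1KO and -0.01 in Dmp1KO/Fgf23cKO, and over all cultures it was -0.011 once cycling and osteoclast cells were left out. That setting drops cells by their own Mki67 and Top2a UMIs, so its cell cycle median is shaped by the filter and is a description only. With both Dmp1KO cultures left out, a setting chosen after seeing the data, 10 of the 40 were called lower. Genes of other cell types also moved with membership. Stromal and osteoblast genes outside the gate had 4 higher and 0 lower of 23 (median 0.20): Tpm1 at 126, 153 and 326 CPM against 38.9, 62.1 and 176 CPM (1.30 ± 0.09), Fstl1 (1.39 ± 0.38), Postn (1.15 ± 0.52, higher in 6 of 11 cultures) and Runx2 (0.79 ± 0.08). Their median turned to -0.27 when thinned to 2000 UMIs and to -0.0042 without cycling and osteoclast cells. Of 16 adipocyte genes, 6 were tested and Fabp4 and Pparg rose and Lpin1 fell, while Lep had 0 and Adipoq, Plin1 and Cfd had 4, 3 and 1 UMIs in members. Of the lymphocyte, granulocyte, mast and endothelial genes 3 were tested, with 2 called higher and 1 lower (lowest -1.35, median 0.86). The largest rise was that of S100a8, by 1.53 ± 0.13 from a median of 6.87 to 21.1 CPM, while S100a9 had 1 UMI and Retnlg and Ly6g had 0. The part of such cells in the other results was not tested.

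**Figure D4:**
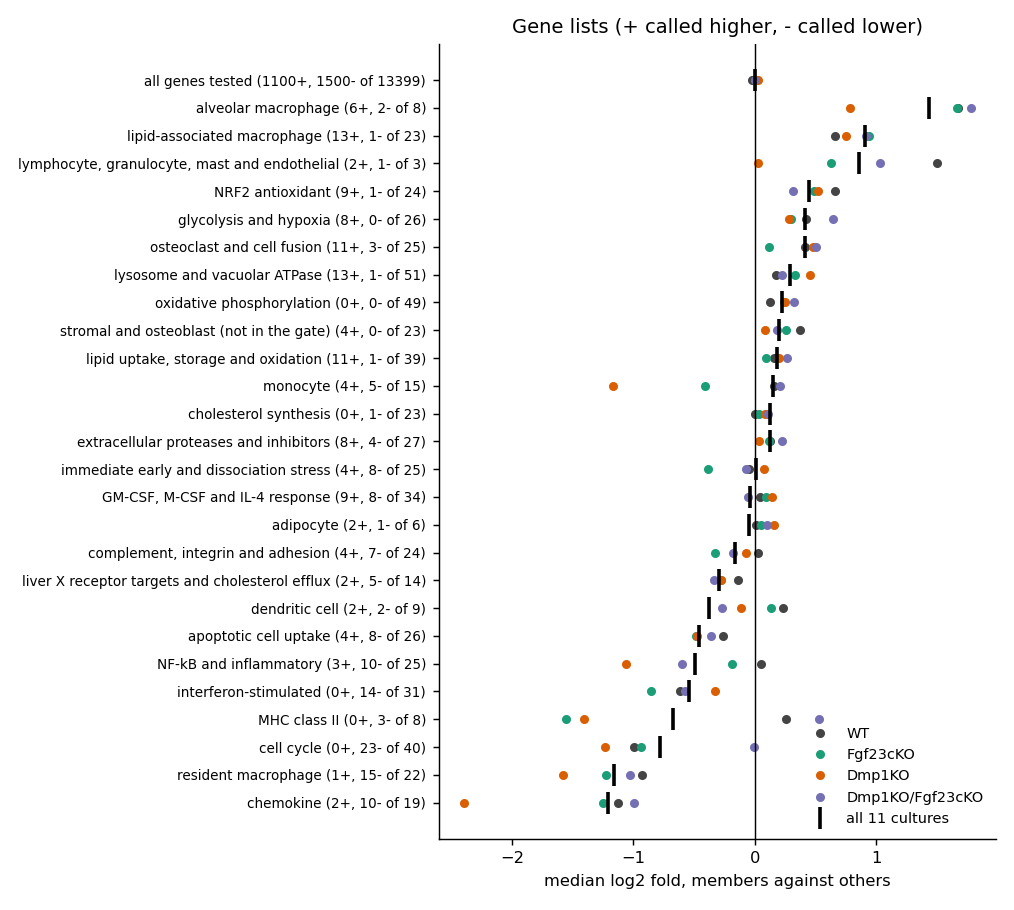
Median log2 fold change of members against other myeloid cells over the tested genes of each list. Points show the list's median within each genotype, and the black tick marks its median over all tagged cultures. The lipid-associated macrophage list (median 0.91) lies to the higher side and the resident macrophage list (median -1.16) and chemokine list (median -1.21) to the lower side of 0.

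Since the rule fixes the share of members, the myeloid cells above 1 common score, the middle of the culture borders at 14.5 UMIs per 10,000, were also counted. Scores above it were found in 11.6%, 8.94% and 10.0% of myeloid cells in the WT cultures, 13.7%, 9.04% and 19.9% in Fgf23cKO, 61.8% and 53.6% in Dmp1KO, and 7.49%, 6.05% and 6.77% in Dmp1KO/Fgf23cKO. The Dmp1KO cultures were far above all others and did not overlap with them, and the Dmp1KO/Fgf23cKO cultures lay below the WT cultures without overlap. The mean share was 10.2% ± 1.34 (SD, n = 3) in WT, 14.2% ± 5.43 (SD, n = 3) in Fgf23cKO, 57.7% ± 5.82 (SD, n = 2) in Dmp1KO and 6.77% ± 0.720 (SD, n = 3) in Dmp1KO/Fgf23cKO, and Fgf23cKO overlapped with WT. The score and the threshold both come from the rule, so these shares are a description with no test. Above the highest culture border, 112.93, the mean shares were 1.56%, 1.08%, 8.48% and 0.954% in the same order, and there Dmp1KO/Fgf23cKO overlapped with WT. After every cell was thinned to 2000 UMIs the mean shares were 11.7%, 15.8%, 59.8% and 8.02%.

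**Figure D5:**
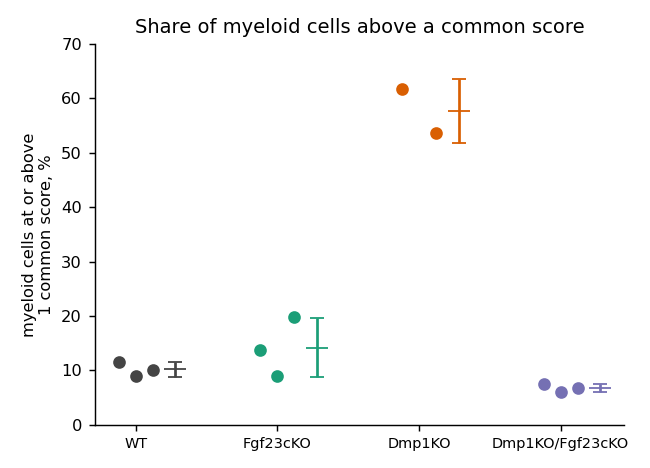
Percent of myeloid cells with a score above 14.5 UMIs per 10,000 in each tagged culture (points) with the mean and SD per genotype. The 2 Dmp1KO cultures, at 61.8% and 53.6%, sit above the other 9, which lie between 6.05% and 19.9%.

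The step between members and other cells was compared between genotypes as an interaction in the same edgeR model. It differed from WT for 1018 of 13399 genes in Dmp1KO (7.60%), 37 in Fgf23cKO (0.276%) and 392 in Dmp1KO/Fgf23cKO (2.93%), and between Dmp1KO/Fgf23cKO and Dmp1KO for 1218 (9.09%), at an adjusted p under 0.1. The members of Dmp1KO scored far higher than those of the other genotypes and were compared with other cells that already carried the score genes, so these differences are not independent of the score. Tnip3, an inhibitor of NF-kB signalling, had the smallest p in Dmp1KO against WT. It rose in WT members by 1.76 on the log2 scale and was lower by 1.02 in Dmp1KO members, a difference of -2.78 ± 0.18 (SE; edgeR adjusted p = 1.53e-09). Its step was 0.46 in Fgf23cKO (difference -1.30 ± 0.16; edgeR adjusted p = 8.47e-04) and 1.34 in Dmp1KO/Fgf23cKO. Stap1, an adaptor of receptor signalling, had a step of 2.25 in WT and 0.54 in Dmp1KO, and Asph, a hydroxylase, 1.31 and -0.11. Rhob, a small GTPase of endosomes, went the other way with -0.15 in WT and 1.39 in Dmp1KO. In Dmp1KO/Fgf23cKO, Sqstm1, the autophagy receptor p62, and Txnrd1, thioredoxin reductase, had smaller steps than in WT, at 0.29 against 1.39 and 0.32 against 1.24, and Anxa1 a larger one, at 2.71 against 1.81. Fabp5, a fatty acid carrier, had a larger step in Fgf23cKO, at 1.504 against 0.92. Among the genes already named, Cd200 had a step of 5.49 in Dmp1KO/Fgf23cKO, 4.35 in Fgf23cKO, 2.86 in WT and 2.66 in Dmp1KO, and Npy 5.04, 3.40, 3.67 and 1.24 in the same order. Dach1 had 4.25, 3.001, 2.70 and 1.21. These counts moved by over 1.5 times when single cultures were left out, as given in the closing section.

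Levels in members were then compared between genotypes, with all 11 cultures in 1 fit of 10061 genes and the other myeloid cells fitted in the same way beside them (13541 genes). The 3 comparisons with WT share the WT cultures, and the Dmp1KO cultures enter 2. Between Dmp1KO and WT members 2520 genes were higher (25%) and 2592 lower (25.8%), 50.8% in all, against 68.6% of the genes tested in the other cells. Between Fgf23cKO and WT 1181 were higher (11.7%) and 958 lower (9.52%), 21.3% in all against 47.9%. For Dmp1KO/Fgf23cKO and WT these were 1621 (16.1%) and 1375 (13.7%), 29.8% in all against 56.1%, and for Dmp1KO/Fgf23cKO and Dmp1KO 1900 (18.9%) and 1904 (18.9%), 37.8% in all against 66.1%. The members are far fewer cells than the others by the rule, so the 2 sets of counts differ in precision.

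Dmp1KO members stood furthest from WT members. Marco, a scavenger receptor for bacteria and particles, had 319, 541 and 400 CPM in WT members and 3.67 and 4.70 CPM in Dmp1KO members (log2 fold change -6.66 ± 0.63, SE; edgeR adjusted p = 8.10e-05). It was at 160, 272 and 86.7 CPM in Fgf23cKO and 72.4, 60.0 and 46.6 CPM in Dmp1KO/Fgf23cKO, so that the WT cultures were the highest and the Dmp1KO cultures the lowest of all. Clec4n, the fungal lectin receptor dectin 2, had 1018, 1006 and 1160 CPM in WT and 41.03 and 43.1 CPM in Dmp1KO (-4.66 ± 0.19; edgeR adjusted p = 2.14e-10). In the other myeloid cells Clec4n differed less, by -2.33, and the 2 differences were themselves different (-2.14; edgeR adjusted p = 3.12e-04). Egr1, an immediate early factor, had 50.8, 77.2 and 39.0 CPM in WT and 1.63 and 2.20 CPM in Dmp1KO (-4.87 ± 0.41), against -2.13 in the other cells. Kazn, Thbs1 and Cav1 were lower too, at log2 fold changes of -4.74 ± 0.55, -4.32 ± 0.42 and -4.24 ± 0.74. Cav1, caveolin 1, was at 0.02 in the other cells, but the difference between the 2 sets did not pass the threshold (edgeR adjusted p = 0.176). Of the named genes that were higher in Dmp1KO members, Mamdc2 had 250 and 261 CPM in Dmp1KO and 2.54, 12.95 and 5.47 CPM in WT (4.97 ± 0.42), and Nes, the intermediate filament nestin, 168 and 138 CPM against 8.88, 3.38 and 1.37 CPM (5.33 ± 0.49). C77080, Tmem178, Fam78b and Tdrd9 followed, with log2 fold changes of 6.10, 5.98, 5.33 and 5.30. In the other myeloid cells Mamdc2 and Nes rose as well, by 6.75 and 6.28.

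By list, lipid-associated macrophage genes were higher in Dmp1KO members than in WT members in 16 and lower in 3 of 23 (median 1.05), beside 18 and 4 of 23 in the other cells (median 1.15). Resident macrophage genes had 2 higher and 15 lower of 19 (median -1.48), beside 5 and 15 of 22 in the others (-0.93). NF-kB and inflammatory genes had 3 higher and 18 lower of 23 (median -1.23) in members and 9 higher and 8 lower of 25 (0.00) in the others. In the same members stromal and osteoblast genes outside the gate had 1 higher and 7 lower of 17 (-1.30), beside 6 and 10 of 23 in the others (-0.44), and immediate early and dissociation stress genes 7 higher and 11 lower of 21 (-0.44), beside 6 and 12 of 24 (-0.33). Their part in the other lists was not tested. Cholesterol synthesis genes had 12 higher and 0 lower of 22 (0.54), beside 18 and 0 of 23 in the others (0.55), and oxidative phosphorylation genes 30 higher and 2 lower of 49 (0.37), beside 37 and 4 of 49 in the others (0.46). Over all genes the others had 4804 higher and 4489 lower of 13541, and the median was -0.03 in members and 0.00 in the others. In Fgf23cKO against WT, the medians were 0.16 for the lipid-associated list (10 higher, 3 lower of 23) and -0.31 for the resident list (1 higher, 4 lower of 19). In the other cells they were 0.10 (7 higher, 5 lower of 23) and -0.22 (3 higher, 8 lower of 22). For the same lists Dmp1KO/Fgf23cKO against WT had 0.41 (13 higher, 3 lower of 23) and -0.03 (5 higher, 4 lower of 19) in members. Its other cells had 0.17 (9 higher, 5 lower of 23) and 0.03 (7 higher, 7 lower of 22).

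Fgf23cKO members differed from WT members by fewer genes. Ctsl, the lysosomal cathepsin L, had 2139, 3112 and 3042 CPM in Fgf23cKO members and 943, 998 and 1032 CPM in WT (log2 fold change 1.48 ± 0.15; edgeR adjusted p = 9.54e-05), beside 0.95 in the other cells. Cxcl14, a chemokine, had 159, 189 and 254 CPM against 54.6, 50.7 and 43.7 CPM (2.03 ± 0.18). Pld4, a lysosomal nuclease, had 57.5, 58.6 and 63.1 CPM against 162, 202 and 197 CPM (-1.66 ± 0.11; edgeR adjusted p = 1.63e-08). Absence of overlap between the cultures of the 2 genotypes was a condition for naming genes here and in the other genotype comparisons. Ccdc162, Kazn, Thbs1 and Rapgef4 were lower, by log2 fold changes of -3.12, -3.53, -2.23 and -2.19, and AY036118, Hist1h4d, Iqgap2 and Lars2 higher, by 2.20, 1.97, 1.69 and 1.48. AY036118 and Lars2 hold sequence resembling ribosomal RNA in mouse, and their counts are uncertain. Lsp1 (-1.60 ± 0.53) passed narrowly, at an edgeR adjusted p of 0.0911, and its call was lost without any of 8 of the 11 cultures (edgeR adjusted p = 0.124 to 0.243).

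Dmp1KO/Fgf23cKO members against WT members had Cd83, an activation marker, at 121, 119 and 93.7 CPM against 29.2, 27.0 and 20.5 CPM (log2 fold change 2.15 ± 0.21; edgeR adjusted p = 1.22e-06). Ckb, brain-type creatine kinase, had 492, 501 and 396 CPM against 142, 163 and 160 CPM (1.57 ± 0.14), with a smaller difference in the other cells, 0.51 (edgeR adjusted p of the difference between the sets = 0.00412). It was at 2569 and 2484 CPM in Dmp1KO members. Cxcl1, Chst11, Psd3 and Pde4d were higher by 1.91, 1.72, 1.63 and 1.54, and the Chst11 call was lost without WT 2, just past the threshold of 0.1. Hal, histidine ammonia lyase, had 85.0, 79.4 and 77.2 CPM in WT members and 0.798, 0.666 and 0 CPM in Dmp1KO/Fgf23cKO (-7.02 ± 0.45), and in the other cells the difference was -6.11. In the same members Ccdc162, Fam177a, Marco, Kazn and Dennd5b were lower, by log2 fold changes of -3.49, -2.84, -2.81, -2.81 and -2.18.

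Against Dmp1KO members, those of Dmp1KO/Fgf23cKO had higher levels of Id3, an inhibitor of basic helix-loop-helix factors, at 326, 317 and 239 CPM against 28.8 and 30.9 CPM (log2 fold change 3.31 ± 0.21; edgeR adjusted p = 8.99e-08). WT members were at 192, 202 and 200 CPM of Id3. Cxcl1, a neutrophil chemokine, had 101, 82.6 and 84.3 CPM against 3.53 and 10.4 CPM (3.69 ± 0.42), and in the other cells it differed by 0.91 (edgeR adjusted p of the difference between the sets = 0.00490). Gdf15, Id1, Marco and F13a1 were higher by 4.21, 3.89, 3.85 and 3.38, the F13a1 call being lost without Dmp1KO/Fgf23cKO 1 (edgeR adjusted p = 0.141). It was also lost without Dmp1KO 2 or Dmp1KO 3, where Dmp1KO had 1 culture left and the other genotypes gave the spread. Among the lower genes, Tdrd9 had 0 UMIs in the members of all 3 Dmp1KO/Fgf23cKO cultures and 60.1 and 60.0 CPM in Dmp1KO. Dach1 had 18.6, 24.99 and 23.8 CPM against 295 and 237 CPM (-3.58 ± 0.29), and Mamdc2, Fam78b, Tmem178 and Npas2 fell by 4.05, 3.998, 3.76 and 3.72. Resident macrophage genes were higher in 15 and lower in 0 of 19 (median 1.62), NF-kB and inflammatory genes higher in 19 and lower in 2 of 23 (1.61), oxidative phosphorylation genes lower in 41 and higher in 0 of 49 (-0.56), and lipid-associated macrophage genes lower in 17 and higher in 4 of 23 (-0.45). In the other cells the same comparison gave 14 higher and 5 lower of 22 (0.97), 17 higher and 2 lower of 25 (0.66), 48 lower and 0 higher of 49 (-0.74), and 17 lower and 3 higher of 23 (-0.86). Over all genes the other cells had 3964 higher and 4990 lower of 13541. Stromal and osteoblast genes outside the gate had 9 higher and 2 lower of 17 in members (1.61), close to the medians of the resident and NF-kB lists, and 16 and 3 of 23 in the other cells (1.12). Immediate early and dissociation stress genes had 11 higher and 4 lower of 21 (0.37), beside 15 and 5 of 24 (0.63). Their part in these results was not tested.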

How the data were processed

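Droplet 3′ libraries of 4 genotypes, 1 reaction each with culture tags, were processed by the authors with Cell Ranger (7.0.1 in the matrix headers) and Seurat on mm10, per the submitters' processing notes, and cells with tags of more than 1 culture were removed. The 15 matrices analysed here hold UMI counts as deposited, not normalised, over 32285 genes. Dmp1KO 1 was not analysed here. Doublets within a culture were not called, and a setting without cells above 2 times the median UMIs stands in for it.

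Members were chosen by the rule given above. UMIs were summed per culture over members and over other cells and tested with edgeR 4.0.16 (quasi-likelihood, TMM factors, filterByExpr, robust; R 4.3.3) with Benjamini-Hochberg adjustment over all genes at 0.1. Members and others were compared with the culture as a block, genotypes among members in 1 fit of 11 cultures, and the difference of the member effect as an interaction. SE is the log2 fold change divided by the square root of F. Depths were tested with exact permutation tests (scipy 1.17.1). Intervals and zero counts cover counting error only. The processing steps were tested on simulated data, and no result here rests on those data. Alternatives were other member cuts, thinning to 2000 UMIs, filters, RLE factors, DESeq2 1.42.0, replicate blocks and leaving out each culture. Coordinates are GENCODE M21 on GRCm38, where 32235 of the gene IDs were found.

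The members and the 26 gene lists were chosen with earlier results of these data known. Named genes are the score and gate genes, the 12 largest changes in each direction among called genes with at least 50 CPM and the same direction in every culture, up to 4 called genes and the defining markers of each list, the 6 largest per direction and genotype comparison without overlap between cultures, the 6 smallest p per difference of the member effect, and Dmp1 and Fgf23. Other genes named in the lists were chosen after their values were seen.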

Additional observations from a re-analysis of the deposited data

Results flagged for a closer look

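The results here are steps between members and other myeloid cells whose difference between 2 genotypes passed the edgeR interaction test (adjusted p under 0.1). Each value is the first genotype's log2 step minus the second's, and no cause was tested.

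In Dmp1KO against WT the step was smaller for Tnip3 (-2.78), Stap1 (-1.71), Asph (-1.42) and Apbb2 (-1.03) and larger for Rhob (1.54) and Hs1bp3 (1.68). For Tnip3, Asph and Rhob the sign of the step changed between these genotypes. Of the genes most strongly higher in members, Npy (-2.42), Il7r (-1.76), Chst11 (-1.46), Plpp3 (-1.15) and Dach1 (-1.49) rose less in Dmp1KO. Of those most strongly lower, Ms4a4a (-3.37), Mrc1 (-0.94), Atrnl1 (-2.79) and Ms4a6b (-1.47) fell further in Dmp1KO.

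In Fgf23cKO against WT the differences were -1.30 for Tnip3, -0.84 for Ptpn12, 0.58 for Fabp5, -1.03 for Pdgfb, -1.26 for Klf4, -0.63 for Sgms1 and 1.49 for Cd200. In Dmp1KO/Fgf23cKO against WT they were -1.23 for Ptpn12, -1.79 for Zc3h12c, -1.10 for Sqstm1, 0.90 for Anxa1, -0.92 for Txnrd1, -0.86 for Sgms1, 2.63 for Cd200 and 1.55 for Dach1.

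In Dmp1KO/Fgf23cKO against Dmp1KO the step was larger for Chst11 (2.36), Dach1 (3.04), Cd200 (2.82), Npy (3.799), Mamdc2 (3.53), Il7r (2.36), Plpp3 (1.79), Uchl1 (2.50) and Fabp7 (2.54). It changed sign for Adra1a, from -2.23 in Dmp1KO to 2.83 in Dmp1KO/Fgf23cKO (5.06). Tnip3 went from -1.02 to 1.34 (2.35) and Asph from -0.11 to 1.57 (1.68). The fall was less deep for Pf4 (1.93), Ms4a4a (3.68), Rnase4 (0.73), Mrc1 (0.92), Atrnl1 (2.39) and Ms4a6b (1.73). Genotype and droplet reaction cannot be told apart in these values.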

How the results depend on the processing

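The 24 genes named for the largest rise or fall in members kept direction and call under the 15 settings in which they were run and without each culture. They were named for a call and the same direction in every culture, so keeping direction without a culture largely followed from that rule. The genes named within lists were not followed through the settings, and the counts of members against others ran from 1003 to 1116 higher and 1398 to 1558 lower without 1 culture. Thinning to 2000 UMIs, which leaves fewer counts, gave 605 higher and 830 lower (479 and 617 of them shared with the reported calls), and calls with any fold 3616 and 3494. Without cells above 2 times the median UMIs, 1046 were called higher and 1372 lower (950 and 1267 shared). The setting without cycling and osteoclast cells dropped every cell with a UMI of Mki67, Top2a, Ctsk, Calcr or Ocstamp. It removed 1673 of the 2584 myeloid cells of Dmp1KO 2, and such a UMI does not by itself identify either cell type. In that setting 790 and 1052 were called (651 and 866 shared, 6 genes reversed). Without both Dmp1KO cultures, chosen after seeing the data, 1080 and 1272 were called.

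For the difference of the member effect, the reported higher and lower counts were 525 and 493 (Dmp1KO against WT), 11 and 26 (Fgf23cKO against WT), 166 and 226 (Dmp1KO/Fgf23cKO against WT) and 657 and 561 (Dmp1KO/Fgf23cKO against Dmp1KO). In that order, thinning gave 126 and 274, 2 higher, 14 and 23, and 124 and 52. An adjusted p under 0.05 gave 337 higher, 3 and 12, 72 and 119, and 431 and 351. Without the filter Fgf23cKO against WT had 70 and 186 and Dmp1KO/Fgf23cKO against WT 370 and 395. RLE factors gave 5 higher for Fgf23cKO, and adding untagged samples 1 higher there and 397 lower for Dmp1KO/Fgf23cKO against WT. Without 1 culture they ran from 138 to 530 and 202 to 729, 1 to 50 and 2 to 119, 37 to 351 and 91 to 449, and 188 to 1061 and 95 to 689. The lowest came without Dmp1KO 3 in the first, without WT 2 in the second, and without Dmp1KO 2 in the last. Leaving out Dmp1KO 2 or Dmp1KO 3 left 1 Dmp1KO culture, and the other genotypes then gave the spread. In the third, 37 were higher without WT 2 or WT 3, and 351 and 449 without Fgf23cKO 2, which also gave the highest 50 and 119 in the second and 1061 in the last.

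Among members, thinning gave 896 and 880 (Dmp1KO against WT), 157 and 188 (Fgf23cKO), 321 and 362 (Dmp1KO/Fgf23cKO) and 469 and 638 (against Dmp1KO). DESeq2 gave 786 higher for Fgf23cKO against WT and 1234 higher for Dmp1KO/Fgf23cKO against Dmp1KO. Without 1 culture Fgf23cKO against WT had 746 (without WT 2) to 1225 higher, and Dmp1KO/Fgf23cKO against Dmp1KO 916 to 2129 higher and 1193 to 2141 lower. With the replicate number as a block the counts were 2391 and 2377, 1119 and 899, 1556 and 1337, and 1507 and 1550, and members against others without the block 1044 and 1440. Same-numbered cultures correlated by -0.0865 to 0.153 and 4 of 11 correlated best with their own number, so the numbers pair nothing. Of the genes named between genotypes, Lsp1, Iqgap2 and Psd3 lost their call when thinned, Lsp1 without the filter and F13a1 under the block.

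List medians moved to 0.73 (lipid-associated) and -0.43 (immediate early) without cycling and osteoclast cells, and 0.12 (adipocyte), and the MHC class II and stromal medians changed sign to 0.08 and -0.0042. In the same setting they were -0.011 (cell cycle), 0.095 (lipid uptake), 0.18 (lysosome), 0.036 (monocyte), -0.21 (dendritic), -0.25 (complement and integrin) and -0.081 (GM-CSF). Thinned, they were -0.26 (NF-kB), -0.040 (dendritic), -0.43 (liver X receptor), -0.30 (complement and integrin), -0.34 (immediate early), -0.27 (stromal), 0.10 (adipocyte) and 0.14 (GM-CSF). With cells ranked on separate UMIs they were -0.96 (resident), -0.43 (MHC class II), -0.26 (complement and integrin), 0.054 (proteases), 0.29 (monocyte), 0.029 (GM-CSF), 0.018 (adipocyte) and -0.031 (immediate early). With untagged samples the share above the common score differed by 50.9, -3.45 and -54.3 points for Dmp1KO and Dmp1KO/Fgf23cKO against WT and the latter against Dmp1KO, but these samples come from the same reactions and are not independent cultures. At the highest threshold Fgf23cKO against WT turned to -0.481 points and Dmp1KO against WT fell from 47.5 to 6.92, and the mitochondrial difference to 0.00251 points for the top 5%. The cause of these moves was not tested.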

Other observations

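The untagged samples held 32 members in WT, 77 in Fgf23cKO, 50 in Dmp1KO and 14 in Dmp1KO/Fgf23cKO, with median scores of 44.3, 34.2, 130 and 26.3 UMIs per 10,000. Their shares of myeloid cells above the common score were 10.1%, 11.8%, 67.8% and 6.57%. The 14 members of the Dmp1KO/Fgf23cKO sample had a median of 2899.5 UMIs against 27336 in its other myeloid cells.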
